A study of Homo sapiens with 6 samples.

Results

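The genes of the telomere end were measured in NGP, a human neuroblastoma cell line with amplified MYCN, after 12 h of exposure to the kinase inhibitor OTSSP167 at 60 nM or to the solvent DMSO alone. The set holds 10 protein-coding genes, taken by symbol from the 19863 rows of the deposited gene count table: the telomerase genes TERT and DKC1, the shelterin genes TERF1, TERF2, TERF2IP, TINF2, ACD and POT1, and the chromatin remodelling genes ATRX and DAXX. Each symbol was found in the table, and the 10 genes are among the 14402 that had enough counts to be tested. Each group held 3 libraries of a single cell line grown with fetal bovine serum, with totals of 36401828 to 57460375 counts in the OTSSP167 group and 46230392 to 50810126 in the DMSO group. Nothing in the labels ties the 3 libraries to separate dishes or passages, and p-values therefore reflect the spread between these samples alone, which may be technical.

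Telomeres are repeats at chromosome ends that shorten as cells divide. Telomerase extends them: its catalytic subunit, encoded by TERT, copies an RNA template that is held and stabilised by dyskerin, encoded by DKC1, and by the other proteins of the H/ACA particle. Shelterin covers the repeats and controls both the access of telomerase and the DNA damage response. Cells without telomerase can instead lengthen telomeres by recombination, a state often seen with loss of ATRX, and in neuroblastoma telomerase activity in MYCN-amplified tumours and ATRX mutation in others are known features of high-risk disease.

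Levels are CPM (counts scaled to a common library total, with TMM factors between libraries), given as mean ± SD with n = 3. CPM are relative to all counted reads of a library, so a higher or lower value is relative to other transcripts, and fewer cells and less RNA per cell cannot be told apart. The identity of the line was checked on fixed markers. The neuroblastoma regulator HAND2 was present (448 ± 18.9 CPM in OTSSP167 cells and 483 ± 104 CPM in DMSO cells), while TH, the rate-limiting enzyme of catecholamine synthesis, stayed under 1 CPM (0.148 ± 0.0620 and 0.266 ± 0.130 CPM). Of 10 such markers, 2 rose and 4 fell in edgeR's test, described below, which called 46.1% of all tested genes. Of 12 fibroblast, Schwann and immune markers, SOX10 and CD3E had 0 counts in the 6 libraries, and the 12 summed to 47.4 to 51.3 CPM in OTSSP167 libraries and 84.3 to 98.4 CPM in DMSO libraries, most of it PDGFRB (27.1 ± 1.81 and 73.8 ± 5.09 CPM). In this list 5 genes were tested, of which 2 rose and PDGFRB and COL1A1 fell, so 4 of 5 passed, against the same 46.1%. CD14 was among those that rose, with 14.2 ± 1.73 CPM in OTSSP167 cells and 0.391 ± 0.122 CPM in DMSO cells (log2 fold change 5.17, edgeR adjusted p = 0.000172). The part of these markers in the results below was not tested.

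OTSSP167 changed 3 of the 10 genes: DKC1 and ACD fell and TERF2IP rose in edgeR's quasi-likelihood test with Benjamini-Hochberg adjustment over all genes and a threshold of 0.05. TERT, ATRX, DAXX, TERF2, TINF2, TERF1 and POT1 did not pass. The share that passed, 3 of 10, is read against 46.1% of all 14402 tested genes, 23.8% higher and 22.3% lower, and is below that background. The 2 groups did not overlap in 5 of the 10 genes, against 60.4% of all tested genes. The median log2 fold change was 0.14 in the set and 0.01 over all tested genes. With DESeq2, 5 of the 10 passed, TERF1 and POT1 being added, against 48.6% of the 16609 genes to which it gave an adjusted p. Without OTSSP167 replicate 3, 4 of the 10 passed in edgeR, against 40% of all genes tested then.

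**Figure D1:**
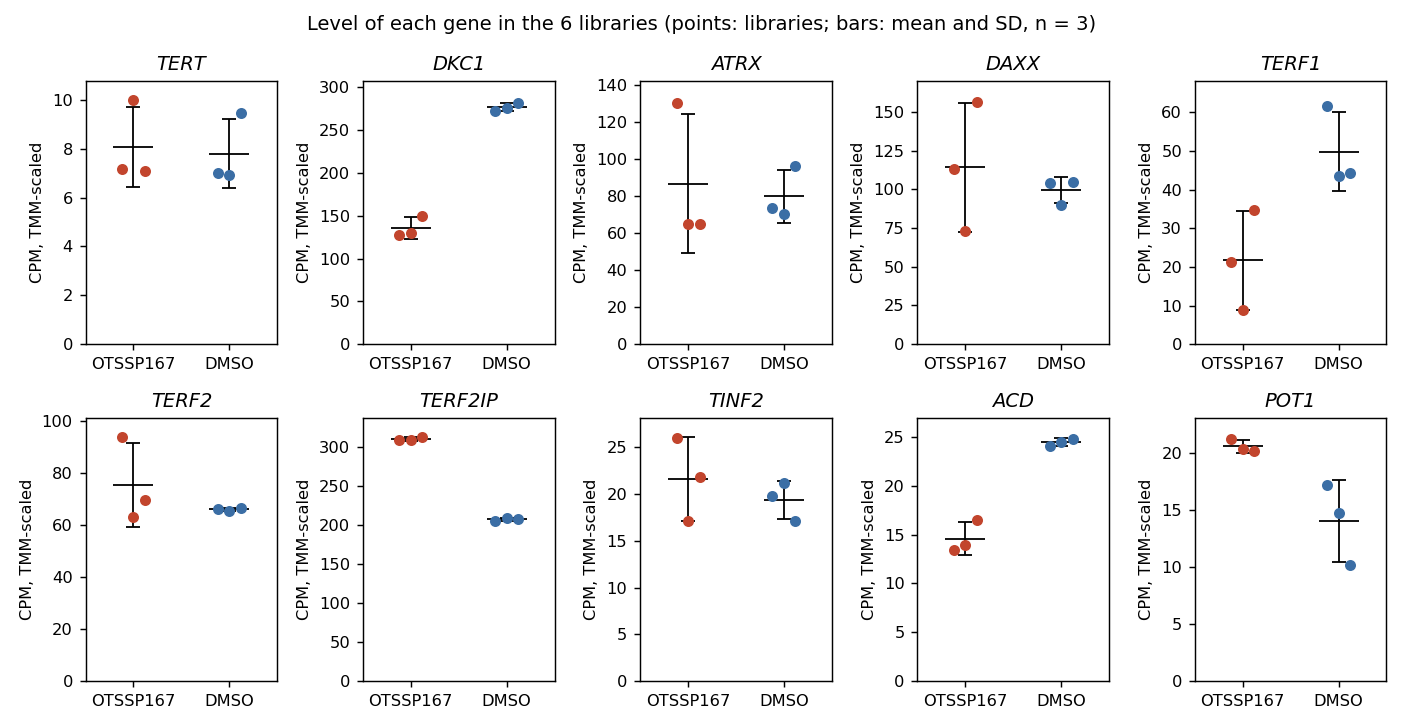
CPM of the 10 genes in each library, with OTSSP167 libraries on the left and DMSO libraries on the right of each panel; points are libraries and bars give the mean and SD (n = 3). The groups are apart for DKC1, ACD and TERF1 (lower with OTSSP167) and for TERF2IP and POT1 (higher with OTSSP167), and they overlap in the other 5 panels.

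Promoter sequence is shown for the 3 genes that passed the test and for POT1, whose start carries a cAMP response element, the binding site of the CREB family. The sequences are RefSeq's on GRCh38.p14, 250 bases before to 50 after the annotated start, read 5′ to 3′ on the gene's strand, and a window was given for 6 of the 10 genes. Capitals mark the motifs searched on both strands: the GC box GGGCGG, the E-box CACGTG, the CCAAT box CCAAT and the cAMP response element TGACGTCA; neighbouring copies can overlap.
DKC1, chrX:154762614-154762913, plus strand: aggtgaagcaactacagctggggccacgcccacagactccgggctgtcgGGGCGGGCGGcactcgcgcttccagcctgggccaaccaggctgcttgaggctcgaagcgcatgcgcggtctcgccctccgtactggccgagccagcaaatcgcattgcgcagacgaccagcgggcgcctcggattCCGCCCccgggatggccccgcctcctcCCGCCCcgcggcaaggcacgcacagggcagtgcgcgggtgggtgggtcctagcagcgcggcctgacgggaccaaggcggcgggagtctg
ACD, chr16:67660211-67660510, minus strand: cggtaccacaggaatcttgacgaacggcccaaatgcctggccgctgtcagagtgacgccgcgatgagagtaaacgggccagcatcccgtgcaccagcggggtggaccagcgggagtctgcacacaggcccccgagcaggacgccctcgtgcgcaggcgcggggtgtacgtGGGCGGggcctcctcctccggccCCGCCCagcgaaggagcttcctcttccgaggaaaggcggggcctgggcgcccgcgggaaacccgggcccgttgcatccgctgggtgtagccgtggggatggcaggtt
TERF2IP, chr16:75647523-75647822, plus strand: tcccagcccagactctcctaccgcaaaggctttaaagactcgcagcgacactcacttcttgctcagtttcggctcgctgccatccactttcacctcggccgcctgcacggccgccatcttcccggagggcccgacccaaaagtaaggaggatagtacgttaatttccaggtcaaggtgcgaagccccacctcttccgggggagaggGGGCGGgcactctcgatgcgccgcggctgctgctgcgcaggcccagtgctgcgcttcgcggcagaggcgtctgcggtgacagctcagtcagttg
POT1, chr7:124929776-124930075, minus strand: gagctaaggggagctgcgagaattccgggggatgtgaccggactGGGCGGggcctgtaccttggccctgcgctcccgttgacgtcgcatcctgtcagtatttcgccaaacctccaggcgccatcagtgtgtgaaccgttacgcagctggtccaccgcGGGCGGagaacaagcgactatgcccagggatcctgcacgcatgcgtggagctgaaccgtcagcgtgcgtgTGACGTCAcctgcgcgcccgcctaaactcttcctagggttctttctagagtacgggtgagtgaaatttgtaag

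The DKC1 window held 4 GC boxes, the TERT window 3 and the ACD window 2. The POT1 window and each TINF2 window held 2, and the TERF2IP window 1. The GC box was thus found in all 6 genes, and it is in 45% of 35116 promoter windows of this length. The cAMP response element, which 1.85% of windows hold, stood 23 bases before the start in POT1 and was not found in the windows of DKC1, ACD, TERF2IP, TERT and TINF2. The E-box, through which MYC family proteins bind, is in 7.26% of windows and was found in the TERT window only of these 6 genes. The CCAAT box, in 34.6% of windows, was found in TINF2 only. These matches describe letters in the window and not binding.

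The 2 telomerase genes went apart: the transcript of the catalytic subunit did not differ beyond the spread of its libraries, while that of dyskerin fell to about 0.490 of its DMSO level. TERT (chromosome 5, 1253147 to 1295069, minus strand, GRCh38) measured 7.17, 9.98 and 7.10 CPM in OTSSP167 replicates 1 to 3, against 7.01, 6.94 and 9.44 CPM in DMSO replicates 1 to 3. In each group 1 library stood above the other 2, and the groups overlapped throughout. The log2 fold change of TERT was 0.05 (SE 0.22, 95% interval -0.50 to 0.60, edgeR adjusted p = 0.863). These values rest on 260 to 569 counts per library, where counting error is at most 6.20% of a value. Without OTSSP167 replicate 2 the estimate was -0.13 (adjusted p = 0.667; its 14 alternatives gave 0.530 to 0.951). CLPTM1L, the nearest gene of the table after TERT on the chromosome at 22674 bp, fell (log2 fold change -0.86, edgeR adjusted p = 0.00653).

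DKC1 (chromosome X, 154762742 to 154777689, plus strand) encodes the pseudouridine synthase that holds the RNA of telomerase and the H/ACA guide RNAs of ribosomal RNA modification. It measured 127, 129 and 150.0 CPM in OTSSP167 libraries, against 272, 276 and 282 CPM in DMSO libraries. The highest OTSSP167 library lay far below the lowest DMSO library. The mean was 135 ± 12.6 CPM with OTSSP167 and 277 ± 4.85 CPM with DMSO, and the log2 fold change was -1.03 (SE 0.07, 95% interval -1.21 to -0.85, edgeR adjusted p = 0.000297). DKC1 stood at percentile 13.7 of all tested genes ordered by fold change, so falls of this size were common in the comparison. DKC1 passed in all 14 alternatives. The annotation places the snoRNA genes SNORA36A and SNORA56 and the miRNA gene MIR664B within its span on the same strand, and these were not analysed here.

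The H/ACA core that binds with dyskerin was uneven. NHP2 (101 ± 3.07 CPM with OTSSP167 and 199 ± 3.68 CPM with DMSO) fell (log2 fold change -0.98, SE 0.04, edgeR adjusted p = 6.32e-05). GAR1 fell by 0.34 (SE 0.08, edgeR adjusted p = 0.0215), with 27.7 ± 1.42 and 35.0 ± 0.874 CPM. NOP10 measured 108 ± 4.30 CPM with OTSSP167 and 113 ± 4.64 CPM with DMSO and did not pass (log2 fold change -0.06, SE 0.06, edgeR adjusted p = 0.404). Among pairs of these genes, the DKC1 to NHP2 ratio of CPM was 1.31, 1.26 and 1.47 in OTSSP167 libraries, against 1.34, 1.40 and 1.43 in DMSO libraries, so these ranges overlapped. The DKC1 to NOP10 ratio was 1.19, 1.15 and 1.44 in OTSSP167 libraries, against 2.39, 2.35 and 2.61 in DMSO libraries, and these ranges were apart. GAR1, NOP10 and the ratios were chosen after their values were seen. The gene RMND5B overlaps NHP2 on the opposite strand over 43.8% of its exon bases and had a log2 fold change of 0.46, so the NHP2 value is uncertain as the strand setting of the counts is not given.

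**Figure D2:**
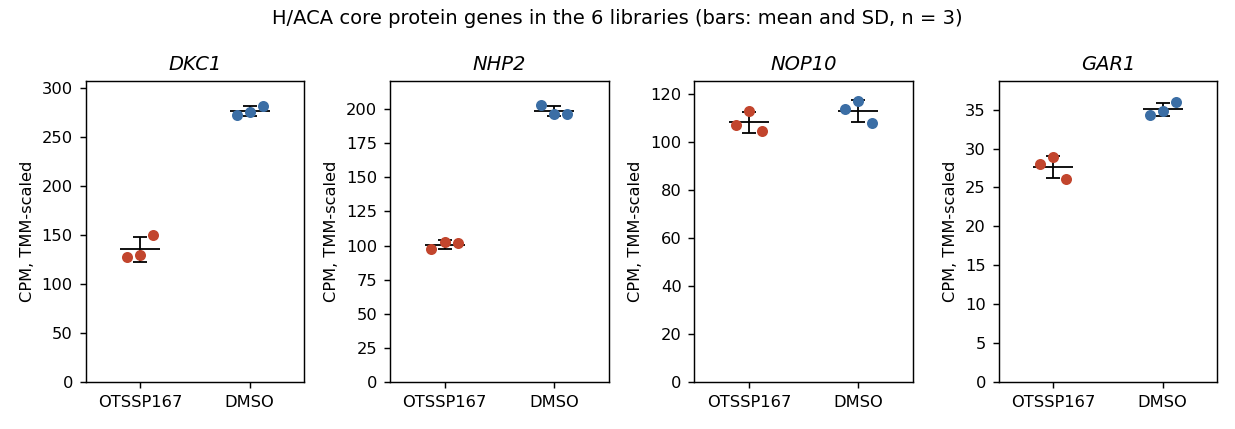
CPM of the 4 H/ACA core protein genes in each library (points), with the mean and SD (n = 3); OTSSP167 is on the left and DMSO on the right. DKC1 and NHP2 are lower in the OTSSP167 libraries by about the same ratio, GAR1 is lower by less, and the NOP10 libraries overlap.

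Over the 18 genes listed for telomerase assembly and RNA processing, 2 rose and 6 fell, which is 44.4% against 46.1% of all tested genes; the list median was -0.29. Besides NHP2, the fall with the smallest p was in RUVBL1, an AAA+ ATPase of particle assembly (121 ± 4.39 CPM with OTSSP167 and 168 ± 1.47 CPM with DMSO, log2 fold change -0.48, edgeR adjusted p = 0.000630). WRAP53, which encodes the Cajal body protein TCAB1 that directs telomerase RNA there, rose by 0.69 (61.6 ± 1.24 and 38.1 ± 4.31 CPM, edgeR adjusted p = 0.00368). TGS1, the cap hypermethylase of telomerase RNA, rose by 0.27 (89.3 ± 2.37 and 73.9 ± 1.76 CPM, edgeR adjusted p = 0.00953). NAT10 and SMUG1, named after their values were seen, fell by more with wider scatter: NAT10 had 3.24 ± 2.12 CPM with OTSSP167 and 46.8 ± 24.5 CPM with DMSO (log2 fold change -3.86, edgeR adjusted p = 0.00701), and SMUG1 had 4.24 ± 0.610 and 8.08 ± 2.64 CPM (-0.93, edgeR adjusted p = 0.0401). RUVBL1 shares 370 exon bases with EEFSEC and 161 with SEC61A1, whose mean was 263 CPM with OTSSP167 and 271 CPM with DMSO, and TGS1 shares 181 with TMEM68 on the opposite strand, so their counts may include reads of these neighbours, and the WRAP53 value is also uncertain without the strand setting. With upper-quartile scaling 3 rose and 4 fell (38.9% against 46.2% of all genes).

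Genes listed as regulators of the TERT promoter were counted beside TERT, in a list that also holds CDKN1A. Of the 24 listed, 2 rose and 8 fell (41.7% against 46.1% of all tested genes), with a list median of -0.02. The split under upper-quartile scaling was 3 higher and 6 lower (37.5% against 46.2% of all genes). MYCN, an activator of TERT, fell by 0.75 on the log2 scale (4495 ± 17.8 CPM with OTSSP167 and 7544 ± 99.9 CPM with DMSO, edgeR adjusted p = 5.74e-06). MXD1, the MAX partner that represses TERT, rose by 2.08 (124 ± 11.7 CPM with OTSSP167 and 29.4 ± 0.40 CPM with DMSO, edgeR adjusted p = 5.97e-05), and MXI1 of the same family rose by 0.18 (126 ± 3.22 and 111 ± 2.11 CPM, edgeR adjusted p = 0.0209). CDKN1A, the cell cycle inhibitor p21, fell by 2.27 (17.3 ± 0.836 and 83.6 ± 1.81 CPM). TERT itself did not pass, as given above.

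Within shelterin the 6 transcripts went in different directions: TERF2IP rose, ACD fell, and the other 4 did not pass the test. TERF2IP (chromosome 16, 75647786 to 75761872, plus strand) encodes RAP1, which binds telomeres through TRF2. Its level was 309, 308 and 312 CPM in OTSSP167 libraries, against 205, 209 and 207 CPM in DMSO libraries. The 3 libraries of a group differed by a few CPM and the groups were far apart. Means were 309.8 ± 2.28 CPM with OTSSP167 and 207 ± 1.79 CPM with DMSO, a log2 fold change of 0.58 (SE 0.03, 95% interval 0.52 to 0.65, edgeR adjusted p = 7.02e-05). TERF2IP passed in all 14 alternatives, with estimates of 0.57 to 0.68. KARS, the lysyl-tRNA synthetase gene on the opposite strand, overlaps its annotated span but shares 0 exon bases with it in the basic annotation; KARS fell (log2 fold change -0.29, edgeR adjusted p = 0.00110).

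TERF2, which encodes the repeat-binding protein TRF2 that guards chromosome ends from fusion, measured 93.9, 63.0 and 69.7 CPM in OTSSP167 libraries, against 66.1, 65.4 and 66.6 CPM in DMSO libraries. OTSSP167 replicate 1 stood above the rest, and replicate 2 lay below the DMSO libraries. The log2 fold change of TERF2 was 0.19 (SE 0.16, 95% interval -0.20 to 0.59, edgeR adjusted p = 0.363), 0.31 without OTSSP167 replicate 2 and 0.0045 without OTSSP167 replicate 1 (adjusted p = 0.969; its 14 alternatives gave 0.160 to 0.969). TERF2IP had 3.28, 4.90 and 4.49 times the CPM of TERF2 in OTSSP167 libraries, against 3.10, 3.19 and 3.11 times in DMSO libraries.

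TERF1 (chromosome 8, 73008864 to 73048122) encodes TRF1, the repeat-binding protein that limits telomere lengthening and eases replication of the repeats. It measured 21.4, 8.98 and 34.7 CPM in OTSSP167 libraries, against 61.6, 43.5 and 44.4 CPM in DMSO libraries. Each OTSSP167 library was under each DMSO library, but the OTSSP167 libraries were scattered. The within-group SD of TERF1 on the log2 scale was 0.73, at percentile 83.7 of all tested genes, while counting error at its lowest count of 512 is 4.42%. The log2 fold change was -1.20 (SE 0.50, 95% interval -2.45 to 0.04, edgeR adjusted p = 0.102), the widest interval of the 10 genes. TERF1 passed with DESeq2 (-1.18, adjusted p = 0.0432), with limma-voom (-1.49, adjusted p = 0.0415) and once OTSSP167 replicate 3 was left out (-1.72, edgeR adjusted p = 0.0409); its 14 alternatives gave adjusted p of 0.0409 to 0.231. GENCODE release 29 names 5 TERF1 pseudogenes, none of which is a row of the table, so its value is uncertain where reads could be divided among copies.

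ACD (chromosome 16, 67657512 to 67660815, minus strand) encodes TPP1, the shelterin subunit that recruits telomerase to the chromosome end. It had 13.4, 13.9 and 16.5 CPM in OTSSP167 libraries, against 24.1, 24.5 and 24.9 CPM in DMSO libraries. The DMSO libraries were within 1 CPM of each other and above each OTSSP167 library. Means were 14.6 ± 1.67 CPM with OTSSP167 and 24.5 ± 0.367 CPM with DMSO, a log2 fold change of -0.75 (SE 0.12, 95% interval -1.04 to -0.45, edgeR adjusted p = 0.00471). ACD passed in all 14 alternatives, with estimates of -0.85 to -0.65. RLTPR overlaps ACD on the opposite strand over 58 exon bases, 2.81% of the exon bases of ACD, and measured 13.1 CPM with OTSSP167 and 10.2 CPM with DMSO (log2 fold change 0.36, edgeR adjusted p = 0.714). PARD6A, a polarity gene that begins 130 bp away on the opposite strand, measured 9.73 CPM with OTSSP167 and 10.4 CPM with DMSO (-0.10, edgeR adjusted p = 0.733).

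POT1 (chromosome 7, 124822386 to 124929983, minus strand) encodes the subunit that binds the single-stranded repeat and pairs with TPP1. It measured 21.2, 20.3 and 20.2 CPM in OTSSP167 libraries, against 17.2, 14.7 and 10.2 CPM in DMSO libraries. The OTSSP167 libraries lay close together and above each DMSO library, and the spread came from the DMSO group. The log2 fold change was 0.55 (SE 0.21, 95% interval 0.03 to 1.07), with an unadjusted p = 0.0409 and an edgeR adjusted p = 0.0787. Without DMSO replicate 3, the lowest library, the POT1 estimate was 0.35 (adjusted p = 0.105), and without DMSO replicate 1 it was 0.72 (adjusted p = 0.0513). POT1 passed with DESeq2 (0.57, adjusted p = 0.0308), the only one of its 14 alternatives to do so, and these gave adjusted p of 0.0308 to 0.166. The ratio of ACD to POT1 in CPM was 0.631, 0.684 and 0.818 in OTSSP167 libraries, against 1.40, 1.67 and 2.45 in DMSO libraries, with no overlap.

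TINF2 (chromosome 14, 24239643 to 24242674) encodes TIN2, the bridge between the double-strand and single-strand binding parts of the complex. It measured 26.1, 17.1 and 21.8 CPM in OTSSP167 libraries, against 19.8, 21.2 and 17.1 CPM in DMSO libraries. The groups overlapped, and the log2 fold change was 0.16 (SE 0.19, 95% interval -0.31 to 0.63, edgeR adjusted p = 0.525). The TINF2 estimate was 0.0025 without OTSSP167 replicate 1, 0.06 without DMSO replicate 3 and 0.30 without OTSSP167 replicate 2 (adjusted p of 0.195 to 0.992 over its 14 alternatives).

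**Figure D3:**
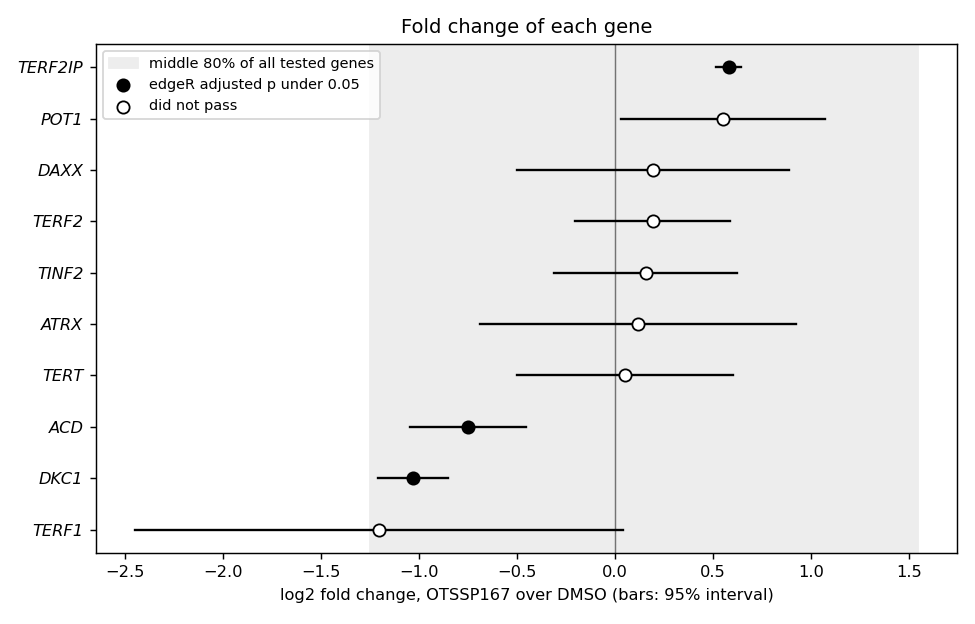
Log2 fold change of each gene, OTSSP167 over DMSO, with its 95% interval (edgeR, n = 3 per group); filled points passed at an adjusted p of 0.05, and the grey band holds the middle 80% of all tested genes (-1.25 to 1.55). TERF2IP lies above 0 and DKC1 and ACD below it with narrow intervals, whereas the TERF1 interval runs from -2.45 to 0.04.

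Levels between the genes were compared per kilobase of annotated exon (GENCODE release 29, basic set). TERF2IP was the most abundant of the 10 in both groups, at 146 ± 1.08 CPM per kilobase with OTSSP167 and 97.8 ± 0.845 with DMSO. DKC1 followed with 44.0 ± 4.11 and 89.8 ± 1.58, DAXX with 43.6 ± 15.8 and 38.1 ± 3.20, and TERF2 with 23.2 ± 5.01 and 20.3 ± 0.182 CPM per kilobase. TERT was the lowest, at 2.01 ± 0.408 CPM per kilobase with OTSSP167 and 1.94 ± 0.354 with DMSO, and POT1 was next at 5.04 ± 0.137 and 3.44 ± 0.872. With OTSSP167 the ranges of neighbours overlapped for DKC1 and DAXX, DAXX and TERF2, and along TINF2, ATRX, ACD, TERF1 and POT1, so the order there is not resolved. With DMSO the order TERF2IP, DKC1, DAXX, TERF2, TERF1, ACD, TINF2, ATRX, POT1, TERT had overlapping ranges for TINF2 and ATRX only. The order depends on the exon set: with the exons of all annotated transcripts DKC1 was above TERF2IP in DMSO cells (65.8 and 61.3 CPM per kilobase).

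**Figure D4:**
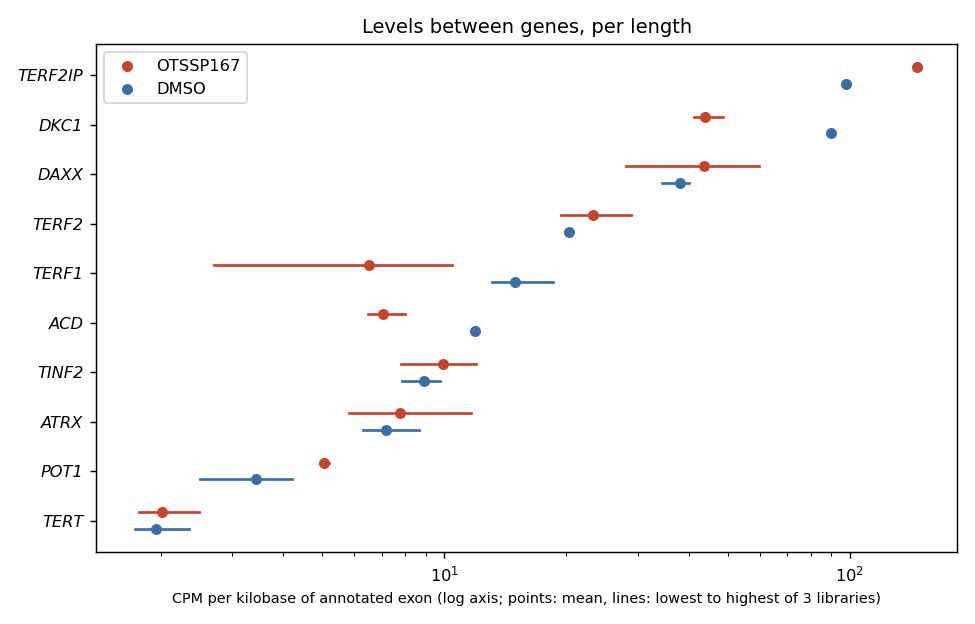
CPM per kilobase of annotated exon for the 10 genes on a log axis, OTSSP167 above DMSO for each gene; points are means and lines run from the lowest to the highest of 3 libraries. TERF2IP is highest (146 and 97.8) and TERT lowest (2.01 and 1.94) in both groups.

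On the same per-kilobase scale TERF2IP made up 71.2 to 77.8% of the summed shelterin transcripts in OTSSP167 libraries and 60.3 to 63.5% in DMSO libraries. The share of ACD was 3.17 to 3.95% in OTSSP167 libraries and 7.28 to 7.81% in DMSO libraries, and that of TERF1 was 1.44 to 5.16% and 8.33 to 11.5%. The shares of POT1 (2.45 to 2.66% and 1.62 to 2.62%), TINF2 (4.19 to 5.84% and 5.11 to 6.21%) and TERF2 (10.3 to 14.1% and 12.6 to 13.3%) overlapped between OTSSP167 and DMSO libraries. These are shares of mRNA, in which TERF2IP alone sets much of the sum.

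Of 18 modifiers of shelterin and damage factors found at telomeres, 9 rose and 4 fell (72.2% against 46.1% of all tested genes), with a list median of 0.28. RLIM, a ubiquitin ligase that targets TRF1, rose by 1.00 on the log2 scale (462 ± 8.19 CPM with OTSSP167 and 232 ± 11 CPM with DMSO, edgeR adjusted p = 6.13e-05). TNKS2, a tankyrase that releases TRF1 from telomeres, rose by 0.58 (164 ± 3.89 and 110 ± 2.33 CPM, edgeR adjusted p = 0.000295). RAD50, of the MRE11 complex, fell by 0.78 (50.7 ± 5.83 and 87.0 ± 2.96 CPM, edgeR adjusted p = 0.00228), and RIF1, a replication timing and repair factor, fell by 1.31 (100.1 ± 52.8 and 248 ± 21.7 CPM, edgeR adjusted p = 0.0340). The size of that excess over all genes depended on which libraries were kept. Without OTSSP167 replicate 2 the count was 7 (6 higher, 1 lower), which is 38.9% against 38.5% of all genes tested then. It was 8 (44.4%, against 37.5 to 40.0% of all genes) without OTSSP167 replicate 3 or without any 1 of the 3 DMSO replicates. Without OTSSP167 replicate 1 the count was 10 (8 higher, 2 lower), which is 55.6% against 39.3% of all genes. With DESeq2-type size factors 9 rose and 2 fell (61.1% against 46.3% of all genes). Upper-quartile scaling gave 11 higher and 2 lower (72.2% against 46.2%).

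Genes of the CST complex, end processing and telomere replication numbered 16, of which 3 rose and 5 fell (8 of 16, against 46.1% of all tested genes), with a list median of -0.46. POLA2, a subunit of the polymerase alpha that fills in the end with CST, fell by 1.54 on the log2 scale (22.3 ± 2.08 CPM with OTSSP167 and 64.8 ± 2.71 CPM with DMSO, edgeR adjusted p = 0.000201). Its primase partner PRIM1 fell by 1.09 (37.1 ± 1.87 and 79.1 ± 4.76 CPM, edgeR adjusted p = 0.000306), and shares 123 exon bases with HSD17B6 on the opposite strand, while PRIM2 rose by 0.43 (64.7 ± 1.69 and 47.9 ± 1.11 CPM, edgeR adjusted p = 0.00335). TEP1, a telomerase-associated protein gene, rose by 0.65 (8.51 ± 0.187 and 5.41 ± 0.619 CPM, edgeR adjusted p = 0.0169). Without DMSO replicate 2, 1 rose and 4 fell, which is 31.2% against 37.5% of all genes tested then.

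ATRX and DAXX, which together deposit histone H3.3 at telomeres and other repeats, did not differ beyond the spread of their libraries. ATRX (chromosome X, 77504878 to 77786233, minus strand) measured 130.1, 65.1 and 65.1 CPM in OTSSP167 libraries, against 73.3, 70.2 and 96.4 CPM in DMSO libraries. OTSSP167 replicate 1 was the highest of the 6, and the other 2 OTSSP167 libraries were the lowest. The log2 fold change of ATRX was 0.12 (SE 0.32, 95% interval -0.69 to 0.92, edgeR adjusted p = 0.789), and -0.30 without OTSSP167 replicate 1 (adjusted p = 0.220; its 14 alternatives gave 0.220 to 0.965).

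DAXX (chromosome 6, 33318558 to 33323016, minus strand) encodes the H3.3 chaperone that works with ATRX. It measured 113, 73.3 and 156 CPM in OTSSP167 libraries, against 104, 90.0 and 105 CPM in DMSO libraries. The OTSSP167 libraries lay on both sides of the DMSO group. The log2 fold change of DAXX was 0.20 (SE 0.28, 95% interval -0.50 to 0.89, edgeR adjusted p = 0.598), and -0.10 without OTSSP167 replicate 3 (adjusted p = 0.736; its 14 alternatives gave 0.107 to 0.899). The highest library was OTSSP167 replicate 1 for ATRX and OTSSP167 replicate 3 for DAXX, and the ATRX to DAXX ratio of CPM was 1.15, 0.889 and 0.417 in OTSSP167 libraries, against 0.704, 0.780 and 0.92 in DMSO libraries.

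Partners of ATRX and DAXX in H3.3 deposition and heterochromatin were often higher. Of 20 listed, 19 were tested, 13 rose and 2 fell (78.9% against 46.1% of all tested genes), with a list median of 0.50. Some of these rises were small changes of abundant transcripts, as in H3F3B (759 ± 13.2 CPM with OTSSP167 and 722 ± 5.45 CPM with DMSO, log2 fold change 0.07) and CBX1 (592 ± 8.22 and 548 ± 7.40 CPM, 0.11). The share that passed among all genes of similar level was not examined. TRIM28, the corepressor KAP1, rose by 0.54 on the log2 scale (532 ± 11.5 CPM with OTSSP167 and 367 ± 1.70 CPM with DMSO, edgeR adjusted p = 7.62e-05). CBX5, which encodes HP1 alpha, rose by 0.25 (1055 ± 7.72 and 885 ± 5.09 CPM, edgeR adjusted p = 0.000166). H3F3A, an H3.3 gene with many pseudogene copies and therefore uncertain, fell by 0.34 (959 ± 20.0 and 1214 ± 24.5 CPM, edgeR adjusted p = 0.000282). HIRA, the chaperone that deposits H3.3 at genes, fell by 2.39 (23.0 ± 1.80 and 121 ± 37.7 CPM, edgeR adjusted p = 0.00104).

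Of 18 genes listed for alternative lengthening and the SMC5/6 complex, 2 rose and 5 fell (38.9% against 46.1%), with a list median of -0.08. RMI2, of the BLM dissolvasome, fell by 1.37 on the log2 scale (14.3 ± 0.526 CPM with OTSSP167 and 36.9 ± 2.50 CPM with DMSO, edgeR adjusted p = 0.000287), and RAD51AP1, a recombination cofactor, fell by 2.36 (2.87 ± 0.689 and 14.8 ± 2.90 CPM, edgeR adjusted p = 0.00126). FANCM, a fork remodelling translocase, rose by 0.34 (26.9 ± 0.862 and 21.3 ± 1.20 CPM, edgeR adjusted p = 0.0308). EID3, an SMC5/6 component gene within the annotated span of TXNRD1 on the same strand, with 0 exon bases in common, had 2.08 ± 0.919 CPM with OTSSP167 and 0.423 ± 0.271 CPM with DMSO (log2 fold change 2.29, edgeR adjusted p = 0.0313) and is uncertain. Without OTSSP167 replicate 2, without DMSO replicate 1 or without DMSO replicate 2, 0 rose and 4 fell (22.2%, against 37.5 to 38.5% of all genes). Without OTSSP167 replicate 3 the share of the list was instead above that of all genes, with 3 higher and 6 lower (50% against 40%). The remaining leave-outs, OTSSP167 replicate 1 and DMSO replicate 3, gave 5 genes each (27.8%, against 39.3% and 38.1%).

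The spread between libraries differed widely within the set. The within-group SD on the log2 scale was 0.01 for TERF2IP, at percentile 0.194 of all tested genes, 0.09 for DKC1 and 0.11 for ACD. It was 0.21 to 0.28 for TERF2, TINF2, TERT and POT1, 0.40 for DAXX, 0.44 for ATRX and 0.73 for TERF1. The median over all tested genes was 0.27. Counting error at the lowest count of each gene was 1.02 to 6.20%. The scatter was larger than counting error in each gene but TERF2IP, and it was widest in TERF1, ATRX and DAXX.

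**Figure D5:**
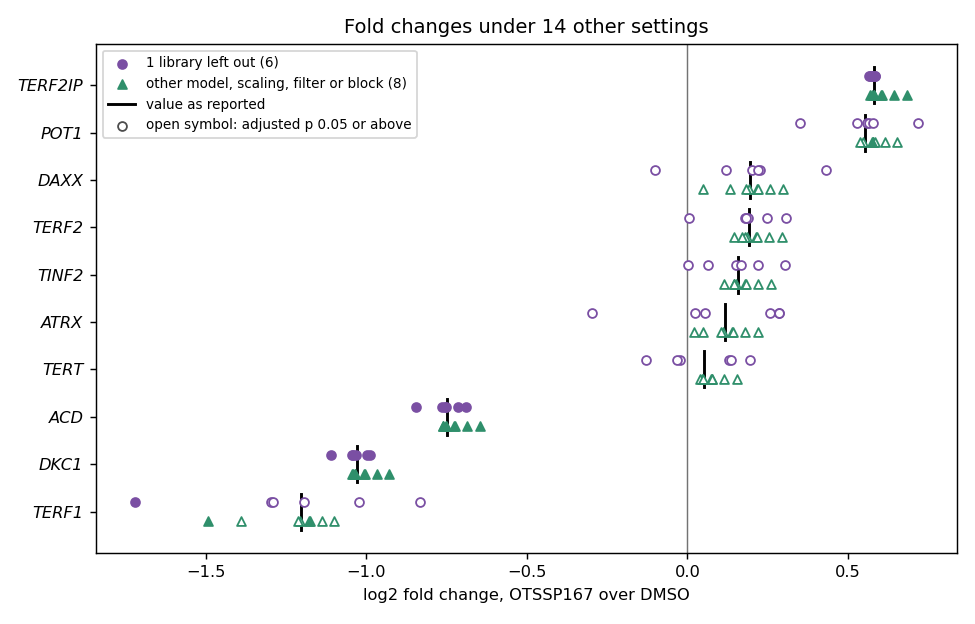
Log2 fold change of each gene as reported (black line), with 1 library left out (circles) and under 8 other models, scalings, filters or the replicate block (triangles); filled symbols passed at an adjusted p of 0.05. DKC1, ACD and TERF2IP are filled throughout, TERF1 is filled in 3 settings and POT1 in 1, and TERT, ATRX and DAXX have values on both sides of 0.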

How the data were processed

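RNA of NGP cells was sequenced in 6 libraries, 3 per group. The authors deposited raw counts per gene symbol. Per the submitters' processing notes FastQC 0.11.2, HISAT2 2.1.0, StringTie 1.3.5 and the build GRCh38.p13 were used. The sources used here do not give the counting step, annotation, strand setting or filters. Library totals were 36401828 to 57460375. Table columns were assigned from the group and replicate number in their names.

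Counts of the whole table were tested with edgeR 4.0.16 in R 4.3.3 (filterByExpr, TMM, robust quasi-likelihood fit of treatment alone, Benjamini-Hochberg adjustment over 14402 genes, threshold 0.05). Of rows that repeat a symbol (58), the one with more counts was read under it. The SE is the log2 fold change over the square root of F, and intervals use the fit's degrees of freedom. Tests were checked on simulated counts for these 14402 genes with 50 changed at each of 4 sizes. Recovered were 1, 14, 40 and 47 of 50 at 1.5-, 2-, 4- and 8-fold, with 11 false calls. The changed genes were drawn from the better expressed ones and were a far smaller share than the 46.1% called in the data. The adjusted threshold was therefore stricter in the simulation, and these recoveries do not measure what the test could detect in the data.

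The members and lists (146 entries, all found, STN1 as OBFC1) were chosen with earlier results of these data known. All 10 members are described; of each list, the 2 genes of smallest p that passed in each direction are named, and genes that overlap or neighbour a member. Some genes that this rule covers are not reported here. Coordinates and exon lengths are GENCODE release 29 by symbol. Alternatives were DESeq2 1.42.0, limma-voom (limma 3.58.1), 3 scalings, 2 filters, the replicate block and each library left out. Same-numbered libraries deviated together with r = 0.01 to 0.04 across genes, so the numbers were not taken to pair them.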

Additional observations from a re-analysis of the deposited data

How the results depend on the processing

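Of 140 member estimates under 14 alternatives each, 131 kept their direction and their side of the threshold. DKC1, ACD and TERF2IP passed in all of theirs, the adjusted p reaching at most 0.00542, 0.0255 and 0.00538 under the replicate block. With all libraries kept, the number of members that passed was 3 except for 5 with DESeq2 and 4 with limma-voom (49% of all genes). Under the replicate block it was also 3 of 10, against 33.9% of all genes. With single libraries left out it was 3, against 37.5 to 39.3% of all genes, except without OTSSP167 replicate 3. There 4 of 10 passed, 40% against 40% of all genes. Estimates that changed sign were those of TERT without OTSSP167 replicate 2 (-0.13), DMSO replicate 1 (-0.02) or DMSO replicate 2 (-0.03), ATRX without OTSSP167 replicate 1 (-0.30) and DAXX without OTSSP167 replicate 3 (-0.10), none of which passed; with single libraries left out their highest estimates were 0.20 (TERT), 0.29 (ATRX) and 0.43 (DAXX). The count of changed genes was 8074 with DESeq2, 4887 with the replicate block and 5540 to 5870 with single libraries left out. Under the block 33.9% of all tested genes passed. Against that share, 8 of 18 shelterin modifiers passed (7 higher, 1 lower, 44.4%). Fewer passed among the alternative lengthening genes (3 of 18, 0 higher and 3 lower, 16.7%). Of the genes listed for the TERT promoter, 6 of 24 passed (1 higher, 5 lower, 25%). Every library correlated best with its own number, a hint from the data and not from the design. Upper-quartile scaling moved the median of all genes by 0.10 on the log2 scale. Counting error is small at this depth, and the spread between 3 libraries per group limits what could be detected, most of all for TERF1, ATRX and DAXX. The exon set behind levels per kilobase was changed after seeing the data.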
